A study of Mus musculus with 18 samples.

Results

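Claudin genes were followed through the primary culture of mouse kidney tubules. The 10 genes (Cldn1, Cldn2, Cldn3, Cldn4, Cldn6, Cldn7, Cldn8, Cldn10, Cldn16 and Cldn19) were picked by name as claudins of leaky and of tight epithelia, and each was found by its exact symbol among the 55421 genes of the count and TPM tables, which hold 32 genes named Cldn with a number. RNA with a polyA tail was sequenced from 18 libraries, 3 (replicates A, B and C) on each of days 0, 1, 2, 4, 7 and 14. All came from wild type C57BL/6 mice (C57BL/6J in the growth protocol), female and 6 weeks old, with no treatment in any group. Kidneys were digested with collagenase, tubules were enriched on Percoll, and the cells were kept on culture plastic for up to 14 days with fresh medium but no passage. Replicates are labelled as biological, with no word on whether each had its own animal or culture. Every p-value therefore rests on the spread among these libraries, and that spread may be technical.

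Claudins are membrane proteins that span the gap between neighbouring epithelial cells at the tight junction, where their outer loops either seal the space or line pores for selected ions. The set of claudins in a nephron segment is known to set what leaks between its cells. The proximal tubule, a leaky epithelium, is known for Cldn2, which makes a pore for cations and water, and for an isoform of Cldn10 that makes an anion pore. The thick ascending limb uses another Cldn10 isoform for sodium, and Cldn16 with Cldn19 for calcium and magnesium. Cldn3, Cldn4, Cldn7 and Cldn8 are known from the distal nephron and collecting duct, where junctions are tight. Cldn1 seals many epithelia and is found in the parietal cells of Bowman's capsule, and Cldn6 is known from embryonic and neonatal kidney.

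Library totals ran from 23799559 to 37579097 estimated counts. Proximal tubule markers (12 genes, among them Slc34a1 and Lrp2) summed to 8787 to 9843 TPM (a level corrected for transcript length and scaled to the same sum in every library) in the day 0 libraries. Beside them, 8 thick limb markers summed to 1962 to 2463 TPM and 8 principal cell markers of the collecting duct to 665 to 998 TPM, so the day 0 libraries held RNA of other nephron segments too. Day 7 replicate C stood apart from its group: over the genes tested its log2 CPM correlated with the day 4 libraries at a mean r of 0.975 and with the day 14 libraries at 0.948, where replicate A had 0.952 and 0.981 and replicate B 0.953 and 0.982. Results for day 7 include replicate C unless stated otherwise, and several of them, though not all, are also given without it. Folds below are from counts scaled by TMM, which assumes that most genes keep their level. TPM and library-size scaling place the median of all genes on day 14 against day 0 higher by 0.60 (on log2(TPM + 1)) and 0.56 log2 units, so a difference in mean TPM between culture and day 0 reads higher than the fold change of the same gene.

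The sequence before the transcription start is shown for 3 genes on which results turn: Cldn2, the leading claudin of day 0, and Cldn4 and Cldn3, neighbours on chromosome 5 that rose at different paces. Each line gives the 250 bases before the start in RefSeq (GRCm38.p6), 5′ to 3′ on the gene's strand, with matches to the motifs searched in capitals.
Cldn2, chrX:139800558-139800807, plus strand: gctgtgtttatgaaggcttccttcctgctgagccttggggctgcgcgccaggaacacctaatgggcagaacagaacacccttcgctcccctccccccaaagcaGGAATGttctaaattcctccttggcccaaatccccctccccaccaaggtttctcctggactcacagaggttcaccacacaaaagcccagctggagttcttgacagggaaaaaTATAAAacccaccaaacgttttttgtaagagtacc
Cldn4, chr5:134946935-134947184, minus strand: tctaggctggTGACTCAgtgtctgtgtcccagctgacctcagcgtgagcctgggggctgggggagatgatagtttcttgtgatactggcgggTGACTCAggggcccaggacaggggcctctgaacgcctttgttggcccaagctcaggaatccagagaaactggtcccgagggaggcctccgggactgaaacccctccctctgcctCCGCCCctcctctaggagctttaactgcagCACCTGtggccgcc
Cldn3, chr5:134985964-134986213, plus strand: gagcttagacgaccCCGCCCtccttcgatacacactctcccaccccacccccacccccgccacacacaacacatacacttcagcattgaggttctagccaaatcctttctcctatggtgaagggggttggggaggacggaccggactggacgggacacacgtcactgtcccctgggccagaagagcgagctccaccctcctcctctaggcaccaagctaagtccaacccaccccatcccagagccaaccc
The capitals in Cldn2 are GGAATG, the letters bound by TEAD factors, and a TATA box (TATAAA) 35 to 30 bases before the start. Those in Cldn4 are a pair of AP-1 letters (TGACTCA, 240 to 234 and 158 to 152 bases before the start), a GC box bound by SP and KLF factors (CCGCCC) and an E-box bound by SNAI factors (CACCTG). Cldn3 held 1 GC box. Windows were found for 9 of the 10 claudins (Cldn1, Cldn2, Cldn3, Cldn4, Cldn6, Cldn7, Cldn10, Cldn16 and Cldn19). AP-1 letters (TGANTCA) stood in the windows of 1 of these genes, Cldn4, and in 6.75% of 32817 promoter windows of the same length, and at least 2 copies stood in 0.338%. GC boxes (GGGCGG) were in the windows of 7 of the 9 genes and in 32.7% of all windows, TEAD letters in 3 and in 12.6%, SNAI E-boxes (CAGGTG) in 3 and in 17.2%, and TATA boxes in 1 and in 12.4%. The letters searched for GRHL (AACCNGTT), HNF1 and HNF4 (CAAAGTCCA) were in none of the 9 genes' windows and in 1.78%, 0.372% and 0.384% of all windows. A gene counts here if any of its windows held the letters, while the percentages count single windows. Cldn7, Cldn10 and Cldn19 had more than 1 window and so more chances of a match. Both strands were searched, none of the matches shown overlap, and a match is a description of the letters and not a binding site.

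The make-up of these claudins turned over within the first day. For brevity, Cldn1, Cldn3, Cldn4, Cldn6, Cldn7 and Cldn8 are grouped as claudins of tight segments. That group takes in Cldn1 and Cldn6 as barrier-forming claudins, not as genes of the distal nephron. Pore-forming claudins (Cldn2, Cldn10, Cldn16 and Cldn19) held 76.6%, 78.3% and 74.7% of the summed TPM of the 10 genes in the day 0 libraries A, B and C. On day 1 they held 8.59%, 11% and 7.28%. By day 2 the share was 1.42 ± 0.714%, and day 4 had 0.976 ± 0.307%, day 7 had 1.64 ± 0.260% and day 14 had 1.25 ± 0.273% (SD over 3 libraries). All 15 culture libraries were at 11% or below. Counting all 32 claudins in the sum gave 69.5% on day 0, and leaving out Cldn10, whose isoforms differ in segment and in ion, gave 5.21% on day 1 and 67.0% on day 0. Shares are descriptions and were not tested.

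**Figure D1:**
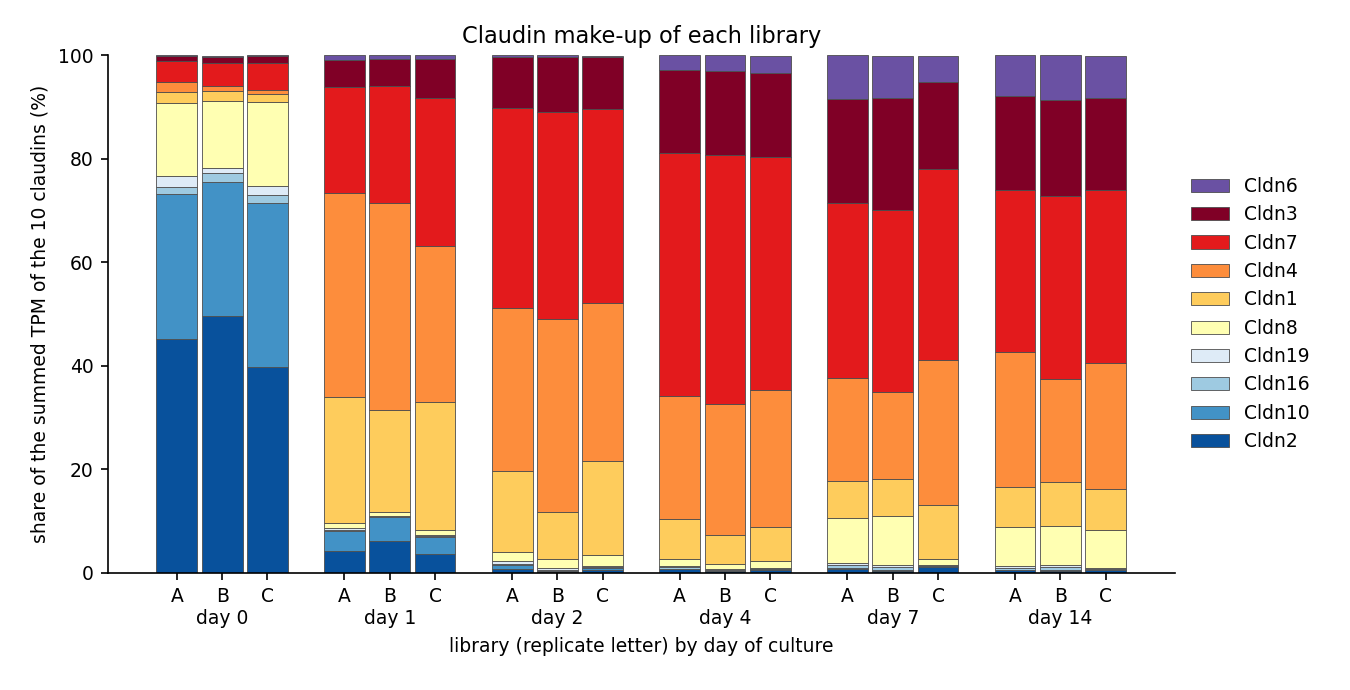
Share of the summed TPM (%) taken by each of the 10 claudins in each of the 18 libraries, in order of culture day. Blue shades are the pore-forming claudins, and the other colours are the claudins of tight segments with the barrier-forming Cldn1 and Cldn6. The blue part covers 74.7% to 78.3% of the bars of day 0, 7.28% to 11% on day 1 and at most 2.21% from day 2 on.

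Loss and gain were not equal in size, so the claudin total in TPM also moved. The 10 genes summed to 697 ± 76.7 TPM on day 0, and day 1 followed with 530.2 ± 36.6 TPM (SD, n = 3 each). The sum was 832 ± 150.4 TPM on day 2, and day 4 had 1604 ± 75.2, day 7 had 1821 ± 239 and day 14 had 1811 ± 38.4. The pore-forming claudins summed to 532 ± 53.5 TPM on day 0, while day 1 had 48.0 ± 13.5 and day 14 had 22.6 ± 4.6. In turn, the claudins of tight segments summed to 164 ± 26.3, 482 ± 23.2 and 1788 ± 42 TPM on the same days. In TPM, the total of the 10 genes on day 1 was below that of day 0 in every library. The totals of days 4, 7 and 14 were above that of day 0. Because TPM in culture reads higher against day 0 than the TMM scale does, the size of this rise depends on the scale. In bulk RNA, fewer cells of a type and less RNA per cell cannot be told apart.

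The order of the genes was also exchanged. On day 0 Cldn2 led with 311 ± 33.6 TPM, followed by Cldn10 with 199.6 ± 35.6, Cldn8 with 101 ± 19 and Cldn7 with 32.3 ± 4.07, and the libraries of these neighbours did not overlap. Cldn1, Cldn16, Cldn19, Cldn4 and Cldn3 lay between 13 and 7.53 TPM on average, each overlapping the next, and Cldn6 was lowest at 1.39 ± 0.157 TPM. On day 1 Cldn4 led each library. From day 2 on Cldn7 led each library, with Cldn4 second except in day 7 replicates A and B, where Cldn3 was second. On day 14 the order was Cldn7 (603 ± 28.8 TPM), Cldn4 (426 ± 64.5), Cldn3 (329 ± 3.24), Cldn6 (150.2 ± 6.22), Cldn1 (145 ± 4.79) and Cldn8 (135 ± 1.28), of which Cldn6 and Cldn1 overlapped. Cldn2, Cldn16 and Cldn19 overlapped in turn at 8.21, 6.76 and 6.54 TPM, and Cldn10 was lowest at 1.11 ± 0.843. By mean TPM Cldn2 stood at place 10467 among all genes on day 14 and at place 452 on day 0, and Cldn7 at place 229 on day 14 and at place 3780 on day 0.

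**Figure D2:**
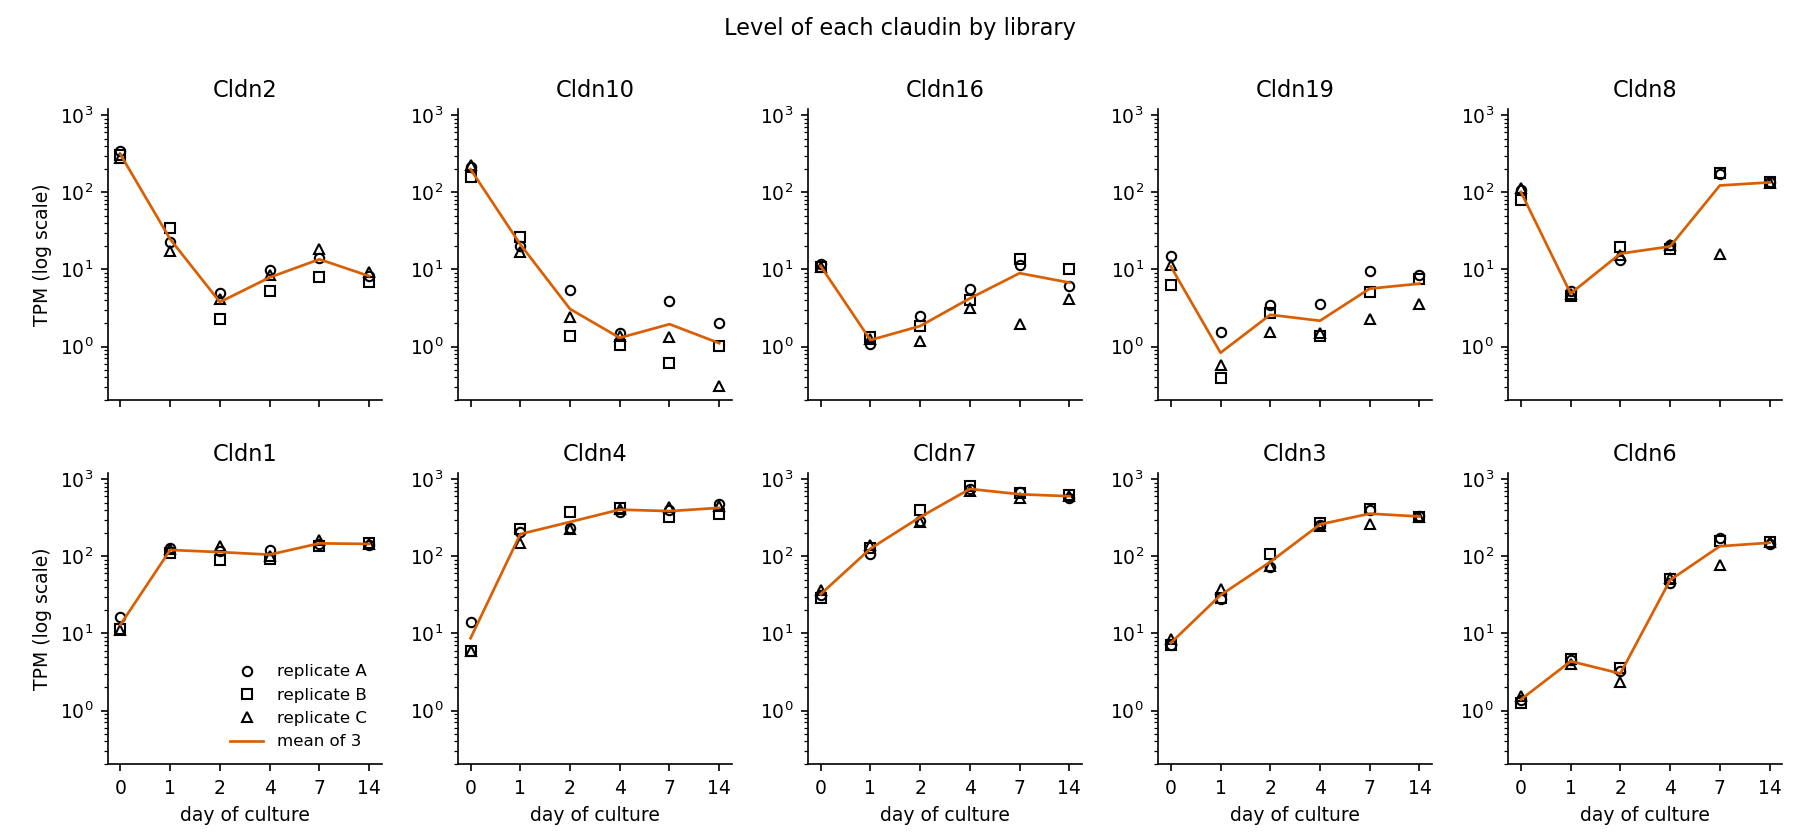
TPM on a log scale for each claudin by day of culture; circles, squares and triangles are replicates A, B and C and the line is the mean of the 3. Cldn2 and Cldn10 drop over days 1 and 2, Cldn1 and Cldn4 are high from day 1, Cldn7, Cldn3 and Cldn6 climb later, and day 7 replicate C lies low for Cldn8, Cldn16 and Cldn6.

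Cldn2, the cation and water pore of the proximal tubule, had 22.40, 34.43 and 17.42 TPM on day 1 and 4.96, 2.25 and 4.11 TPM on day 2, against 346.52, 306.25 and 279.86 TPM on day 0 (replicates A, B and C). Each day's libraries lay below all those of the day before, with no overlap. The log2 fold change was -4.00 ± 0.36 on day 1 against day 0 (SE, edgeR quasi-likelihood, adjusted p = 6.37e-08) and -2.93 ± 0.35 on day 2 against day 1 (edgeR, adjusted p = 1.66e-05). Cldn2 then recovered a little: it had 9.91, 5.32 and 8.40 TPM on day 4, a log2 rise of 0.99 ± 0.34 over day 2 (edgeR, adjusted p = 0.03). That rise was lost without day 4 replicate A, day 2 replicate B, day 2 replicate C or day 4 replicate C (edgeR, adjusted p = 0.117, 0.12, 0.0535 and 0.0725). It stayed between 5.32 and 18.51 TPM from day 4 on, below every day 1 library except that day 7 replicate C, at 18.51 TPM, lay above day 1 replicate C.

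Cldn10 fell over the same days and stayed low. It had 20.26, 26.42 and 16.80 TPM on day 1 and 5.46, 1.35 and 2.39 TPM on day 2, against 215.29, 158.89 and 224.67 TPM on day 0, and its 3 libraries of each of these days lay wholly below those of the day before. The log2 fold change was -3.66 ± 0.53 on day 1 against day 0 (edgeR, adjusted p = 1.42e-05) and -7.93 ± 0.68 on day 14 against day 0 (edgeR, adjusted p = 3.45e-08). On day 14 it had 1.99, 1.02 and 0.31 TPM. The ratio of Cldn2 to Cldn10 in TPM was 1.59 ± 0.341 on day 0 and 1.15 ± 0.138 on day 1. Day 4 had 5.98 ± 0.774 and day 14 had 4.19 to 30.2, the last resting on few Cldn10 reads. Counts per gene do not separate the proximal tubule isoform of Cldn10 from that of the thick limb. The proximal tubule markers summed to 9392 ± 545 TPM on day 0, 3363 ± 975 on day 1 and 635 ± 228 on day 2. Day 4 had 26.4 ± 5.67 TPM of them, day 7 had 61.2 ± 25.5 and day 14 had 111 ± 11.7. The list did not rise as its sum did: on day 14 against day 4, 1 of the 12 markers was higher and 4 lower. Their median log2 fold change was -0.99, where 28.6% of all genes tested were higher and 23.3% lower. The part of these markers' cells in the fall of Cldn2 and Cldn10 was not tested. On day 1 the mean of Cldn2 was 24.8 ± 8.75 TPM, against 311 ± 33.6 on day 0.

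Cldn4, which in the collecting duct is known to admit chloride and hold back sodium, made the largest day 1 rise of the 10 genes. It had 207.75, 227.03 and 148.86 TPM on day 1, against 14.27, 5.88 and 5.87 TPM on day 0. The lowest day 1 library was far above the highest of day 0, replicate A, which itself stood above B and C. The log2 fold change was 4.14 ± 0.32 (edgeR, adjusted p = 1.06e-08), and day 2 followed with 234.30, 376.51 and 228.54 TPM. Day 4 had 373.15, 428.96 and 410.54 TPM, day 7 had 402.25, 321.47 and 436.55, and day 14 had 475.28, 353.01 and 449.61. No step after day 1 was called (edgeR, adjusted p = 0.446, 0.174, 0.705 and 0.97), although day 4 against day 2 passed when those 6 libraries alone were fitted (log2 0.50, adjusted p = 0.0331). Set against Cldn2, the TPM ratio of Cldn4 was 0.0271 ± 0.0122 on day 0, while day 1 had 8.14 ± 1.39 and day 14 had 52.0 ± 4.62.

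Cldn1 rose by day 1, and no later step between sampled days was called with all libraries. It had 128.20, 112.05 and 123.04 TPM on day 1, against 16.53, 11.48 and 10.97 TPM on day 0, with no overlap and a log2 fold change of 2.86 ± 0.17 (edgeR, adjusted p = 6.88e-10). Day 2 against day 1 passed only without day 2 replicate C (log2 -0.47, edgeR adjusted p = 0.0423). Later libraries stayed between 89.46 and 163.45 TPM. The step of day 7 against day 4, with no overlap, was 0.40 ± 0.16 (edgeR, adjusted p = 0.0564). It passed without day 0 replicate A, day 4 replicate A, day 2 replicate B or day 2 replicate C (edgeR, adjusted p = 0.0327, 0.0372, 0.0275 and 0.0396). Without day 7 replicate C the step was smaller and not called (log2 0.34, edgeR adjusted p = 0.105). The share of Cldn1 in the claudin sum was 8.01 ± 0.377% on day 14, against its peak of 23.0 ± 2.82% on day 1. Of the 8 thin limb and parietal epithelium markers tested (10 listed), 3 were higher and 4 lower on day 1 against day 0, with a median log2 fold change of -0.46, while the shares over all genes were 33.1% and 37.1%. By day 14 the 8 markers stood at 6 higher and 2 lower than on day 0, beside 37.4% and 32.1% over all genes. Their sum was 172 ± 44.4 TPM on day 0, while day 1 had 1589 ± 263 and day 14 had 2447 ± 176. It was carried by Cryab, with 1051 ± 239 TPM on day 1 and 64.7 ± 17.4 on day 0, and Akr1b3, with 445 ± 58.4 and 35.0 ± 3.54. Ntng1 was at 0 on both days, and the part of these markers' cells in the rise of Cldn1 was not tested.

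Cldn7 and Cldn3 climbed in steps over the first 4 days. Cldn7, a claudin of the collecting duct known to sit on lateral membranes as well as in the junction, had 108.43, 128.53 and 140.93 TPM on day 1, against 31.89, 28.49 and 36.59 on day 0. It then had 287.96, 401.85 and 279.85 TPM on day 2 and 738.84, 813.29 and 696.73 on day 4. Libraries of successive days did not overlap, and the log2 fold changes were 1.59 ± 0.15 on day 1 against day 0, 1.11 ± 0.14 on day 2 against day 1 and 1.18 ± 0.14 on day 4 against day 2 (edgeR, adjusted p = 8.7e-08, 2.79e-05 and 1.08e-05). Day 14 libraries, at 570.44, 624.86 and 613.81 TPM, were lower than those of day 4 by a log2 fold change of -0.52 ± 0.14 (edgeR, adjusted p = 0.00602), a call that limma on log2(TPM + 1) did not make (-0.31, adjusted p = 0.0695).

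Cldn3 rose at each of these steps, whose sizes were not tested against each other. It had 27.66, 28.87 and 37.70 TPM on day 1, 72.68, 106.64 and 74.86 on day 2 and 255.22, 274.16 and 250.69 on day 4, against 7.01, 7.10 and 8.47 on day 0. No day overlapped the day before it, and the log2 steps were 1.69 ± 0.18, 1.21 ± 0.17 and 1.57 ± 0.17 (edgeR, adjusted p = 5.28e-07, 6.27e-05 and 3.68e-06). On day 7 it had 404.32 and 409.40 TPM in replicates A and B but 261.08 in C. The log2 step from day 4 was 0.38 ± 0.16 (edgeR, adjusted p = 0.0807), and 0.58 without day 7 replicate C (edgeR, adjusted p = 0.00124). On day 14 it had 332.73, 326.30 and 328.78 TPM, against 404.32 and 409.40 in day 7 replicates A and B, a log2 difference of -0.43 without replicate C (edgeR, adjusted p = 0.0312) and -0.23 with it (adjusted p = 0.404). Relative to Cldn4, its neighbour, the TPM ratio of Cldn3 was 1.05 ± 0.496 on day 0, 0.171 ± 0.0711 on day 1 and 0.307 ± 0.0223 on day 2, before it reached 0.645 ± 0.037 on day 4 and 0.785 ± 0.121 on day 14.

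Cldn6 was the late gene of the set. It had 4.49, 4.62 and 3.97 TPM on day 1 and 3.21, 3.51 and 2.34 on day 2, against 1.36, 1.25 and 1.56 on day 0, and then 44.48, 51.08 and 52.18 TPM on day 4. All day 4 libraries were more than 10 TPM above any earlier library. The log2 fold change of day 4 against day 2 was 4.01 ± 0.25 (edgeR, adjusted p = 2.52e-08), the largest step of any of the 10 genes between successive sampled days after day 1. On day 7 it had 171.31 and 157.13 TPM in replicates A and B and 77.87 in C, all above day 4 (log2 1.37 ± 0.21, edgeR adjusted p = 0.000178, and 1.66 without replicate C, adjusted p = 4.85e-09), and on day 14 143.18, 155.11 and 152.17. On day 2 against day 0 it was not called (log2 0.45 ± 0.28, edgeR adjusted p = 0.153). In TMM-scaled CPM its groups overlapped, with 2.12 in the lowest day 2 library and 2.16 in the highest of day 0. Its TPM groups did not overlap, limma on log2(TPM + 1) called it higher (0.74, adjusted p = 0.00566), and edgeR did without day 7 replicate C (adjusted p = 0.0115). The day 2 level was below that of day 1 (log2 -0.79 ± 0.25, edgeR adjusted p = 0.0221), a call lost without day 1 replicate A, day 1 replicate B or day 2 replicate C (adjusted p = 0.0554, 0.0714 and 0.0873).

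Cldn8, Cldn16 and Cldn19 fell on day 1 with the pore-forming claudins of the proximal tubule, and Cldn8 was higher again by day 14. Cldn8, a claudin of the distal nephron and collecting duct that pairs with Cldn4, had 5.29, 4.59 and 4.74 TPM on day 1, against 108.75, 79.53 and 115.10 on day 0. The groups were far apart, and the log2 fold change was -4.74 ± 0.60 (edgeR, adjusted p = 3.4e-06), the deepest of the 10 genes on that day. It had 13.29, 19.30 and 15.59 TPM on day 2, 21.00, 18.20 and 20.47 on day 4, then 172.59 and 180.53 in day 7 replicates A and B but 15.83 in C, and 136.16, 134.37 and 133.67 on day 14. Day 14 stood above day 4 without overlap, with a log2 fold change of 2.57 ± 0.54 (edgeR, adjusted p = 0.000896). For day 7 against day 4 the value was 2.56 ± 0.54 (edgeR, adjusted p = 0.00173), and 3.08 without replicate C (adjusted p = 2.33e-10). Replicate C lay below the day 4 libraries, and the call was lost when those 6 libraries alone were fitted (adjusted p = 0.0668). Day 2 exceeded day 1 by 1.5 ± 0.55 (edgeR, adjusted p = 0.0444), a call lost in 15 of the 18 fits that left out 1 library (adjusted p of up to 0.114).

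Against isolation, the end level of Cldn8 turned on the scale. In TPM all day 14 libraries lay above those of day 0, while in TMM-scaled CPM (counts scaled to a common library size) they had 171, 173 and 167 against 239, 181 and 259 on day 0, all below. The log2 fold change was -0.41 ± 0.50 with TMM (edgeR, adjusted p = 0.482), 0.15 with library sizes alone (adjusted p = 0.796) and 0.43 with limma on log2(TPM + 1) (adjusted p = 0.53). Without day 7 replicate C the TMM value of -0.41 passed the threshold (edgeR, adjusted p = 0.00454), and so did the value of -0.52 when only the 6 libraries of both days were fitted (adjusted p = 0.00288). The direction of Cldn8 on day 14 against day 0 thus differed between scales.

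Cldn16 and Cldn19, the partners of the calcium and magnesium pore in the thick limb, were low throughout. Cldn16 had 1.08, 1.31 and 1.25 TPM on day 1, against 11.66, 10.61 and 10.92 on day 0, and Cldn19 had 1.53, 0.39 and 0.57 TPM on day 1, against 15.05, 6.26 and 11.49 on day 0. Neither gene's groups overlapped, and the log2 fold changes were -3.80 ± 0.54 and -4.00 ± 0.58 (edgeR, adjusted p = 1.16e-05 and 1.46e-05). On day 7 Cldn16 had 11.28 and 13.58 TPM in replicates A and B and 1.98 in C, and on day 14 6.08, 10.09 and 4.10. On day 7 Cldn19 had 9.48, 5.17 and 2.27 TPM, and on day 14 8.54, 7.52 and 3.55. Against day 4, the log2 fold changes of day 7 were 1.20 ± 0.48 for Cldn16 (edgeR, adjusted p = 0.0584) and 1.03 ± 0.50 for Cldn19 (adjusted p = 0.119). Without day 7 replicate C they were 1.67 and 1.39 (edgeR, adjusted p = 0.000269 and 0.0192). Against day 0, Cldn16 was still lower on day 14 (log2 -1.63 ± 0.47, edgeR adjusted p = 0.00593), though limma on log2(TPM + 1) gave -0.71 (adjusted p = 0.16). For Cldn19 the value was -0.94 ± 0.49 (edgeR, adjusted p = 0.0954, and 0.0478 without day 7 replicate C).

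Markers of the same segments differed in how they moved after day 4. Of the thick limb markers, Umod, the main urinary protein, had 834 ± 114 TPM on day 0, 0.553 ± 0.564 on day 4 and 1.58 ± 0.263 on day 14, and Slc12a1, the sodium-potassium-chloride cotransporter, had 222 ± 59.8, 0.467 ± 0.361 and 0.983 ± 0.883. Bsnd, the barttin subunit of chloride channels, instead had 43.0 ± 7.37 TPM on day 0, 5.79 ± 0.571 on day 4 and 42.7 ± 4.23 on day 14. In the collecting duct list Aqp2, the vasopressin-regulated water channel, had 294 ± 57.1, 2.49 ± 1.04 and 0.49 ± 0.0557 TPM on those days. Avpr2, the vasopressin receptor, had 21.9 ± 7.03, 34.0 ± 3.03 and 76.6 ± 5.38. With TMM, Avpr2 was called against day 0 neither on day 4 (log2 -0.17 ± 0.49, edgeR adjusted p = 0.763) nor on day 14 (0.95 ± 0.50, adjusted p = 0.0985). On day 7 Avpr2 was called higher than on day 0, with overlapping groups (log2 1.16 ± 0.50, edgeR adjusted p = 0.0474). Gata3, a transcription factor of the collecting duct, had 12.8 ± 1.81 TPM on day 0, 35.0 ± 1.73 on day 4 and 65.8 ± 4.34 on day 14, and Scnn1b, a subunit of the epithelial sodium channel, had 36.8 ± 5.88, 4.5 ± 0.801 and 21.9 ± 7.63. With TMM, Scnn1b was lower on day 14 than on day 0 (log2 -1.57 ± 0.49, edgeR adjusted p = 0.00951) and Gata3 higher (1.64 ± 0.33, adjusted p = 0.000331). These markers were named after their values were seen. Over the whole lists on day 14 against day 4, 3 of 8 thick limb markers were higher and 1 lower, and 3 of 8 principal cell markers were higher and 2 lower, where 28.6% of all genes tested were higher and 23.3% lower. Of 6 markers of the distal convoluted and connecting tubule, 3 were higher and 0 lower in that comparison.

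Day 7 replicate C was low in the same lists as in Cldn8. The thick limb markers summed to 7.71 TPM in it and to 68.9 and 111 in replicates A and B, the principal cell markers to 76.2 against 425 and 459, and the urothelium markers, led by Psca and Upk3b, to 5.01 against 114 and 114. Markers of the distal convoluted and connecting tubule summed to 3.95 TPM in replicate C and to 24.8 and 41.3 in replicates A and B. Endothelial markers summed to 25.9 TPM in replicate C and to 6.27 and 6.16 in the others. The part of these cells in the level of Cldn8, Cldn16 and Cldn19 was not tested. Urothelium markers summed to 51.5 ± 5.27 TPM on day 14 and 1.81 ± 1.19 on day 0. The day 14 sum was carried by Upk3b (26.4 ± 6.43 TPM) and Psca (23.7 ± 4.93), with Upk3a and Krt5 at 0. Of the 6 urothelium markers tested, 2 were higher and 1 lower on day 14 against day 0, where 37.4% of all genes were higher and 32.1% lower. Intercalated cell markers summed to 1.12 ± 0.318 TPM on day 14 and 278 ± 65.4 on day 0.

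**Figure D3:**
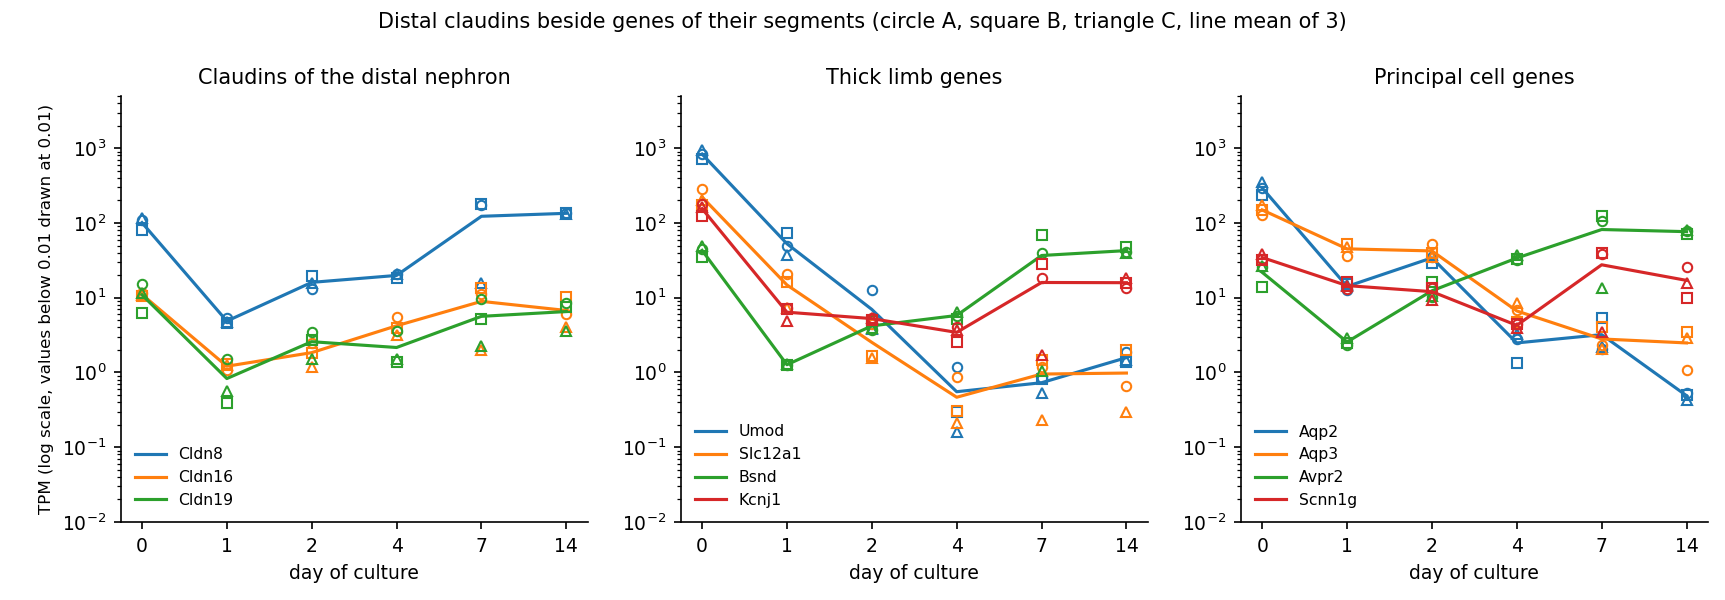
TPM on a log scale by day for Cldn8, Cldn16 and Cldn19 (left), 4 thick limb genes (middle) and 4 principal cell genes (right); symbols are replicates and lines the mean of 3. Bsnd, Kcnj1 and Scnn1g are higher on day 14 than on day 4, as Cldn8 is, and lie low in day 7 replicate C (triangles). Avpr2 is above its day 0 mean by day 4 in TPM, but not in TMM-scaled CPM (32.7 ± 3.28 on day 4 and 37.0 ± 11.9 on day 0). Umod, Slc12a1, Aqp2 and Aqp3 are at most 3.5 TPM in each day 14 library.

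The counts of called claudins stand beside a background in which most genes changed. On day 1 against day 0, 5 members were higher (Cldn1, Cldn3, Cldn4, Cldn6 and Cldn7) and 5 lower (Cldn2, Cldn8, Cldn10, Cldn16 and Cldn19), where 33.1% of the 18754 genes tested were higher and 37.1% lower (edgeR quasi-likelihood, adjusted p under 0.05). On day 2 against day 0, 4 were higher and 5 lower, with 38.9% and 35.3% of all genes. On day 4 they were 5 and 5, with 38.1% and 36.8%. On day 7 they were 5 and 2, with 37.6% and 32.1%, since Cldn8, Cldn16 and Cldn19 were not called. Cldn16 was called lower without day 7 replicate B (edgeR, adjusted p = 0.0187), and Cldn19 without day 7 replicate A or day 0 replicate B (adjusted p = 0.0109 and 0.0423). On day 14 they were 5 and 3, with 37.4% and 32.1%, and 5 and 5 without day 7 replicate C. These 5 comparisons share the day 0 libraries. With most genes called in each, the count of members called is no result about claudins. The median log2 fold change on day 14 against day 0 was -3.86 for the 4 pore-forming claudins and 3.99 for the 6 claudins of tight segments, beside 0.16 over all genes tested. Across the 6 days, all 10 members differed (edgeR, adjusted p of at most 0.000115), as did 89.8% of all genes.

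Steps between successive sampled days were fewer. On day 2 against day 1, 4 members were higher (Cldn3, Cldn7, Cldn8 and Cldn19) and 3 lower (Cldn2, Cldn6 and Cldn10), with 17% and 17.5% of all genes. The higher count was 2 without day 2 replicate A, day 1 replicate B or day 1 replicate C, as Cldn8 and Cldn19 were lost. On day 4 against day 2, 4 were higher (Cldn2, Cldn3, Cldn6 and Cldn7), with 19.4% of all genes, and 0 lower by edgeR, DESeq2 and limma and at an unadjusted p under 0.05, with 22.1%. On day 7 against day 4, 2 were higher (Cldn6 and Cldn8), with 22.0%, and 5 without day 7 replicate C (Cldn3, Cldn6, Cldn8, Cldn16 and Cldn19). Cldn2 was called higher there without day 7 replicate B (log2 0.97, edgeR adjusted p = 0.035). None of the 10 was lower by edgeR, DESeq2 or limma, with 15.9% of all genes, and 1 was at an unadjusted p under 0.05 (edgeR). On day 14 against day 7, 0 members were called in either direction by edgeR, DESeq2 or limma, with 5.07% of all genes higher and 7.46% lower, and 1 was lower at an unadjusted p under 0.05 (edgeR). Without day 7 replicate C, 3 were lower there (Cldn3, Cldn8 and Cldn16), and without day 7 replicate B 1 was (Cldn2, log2 -1.11, edgeR adjusted p = 0.0311). On day 14 against day 4, a comparison added after the data were seen, 2 were higher (Cldn6 and Cldn8) and 1 lower (Cldn7), with 28.6% and 23.3% of all genes. Cldn19 was also called higher there without day 4 replicate A or day 7 replicate C (edgeR, adjusted p = 0.0401 and 0.0395).

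**Figure D4:**
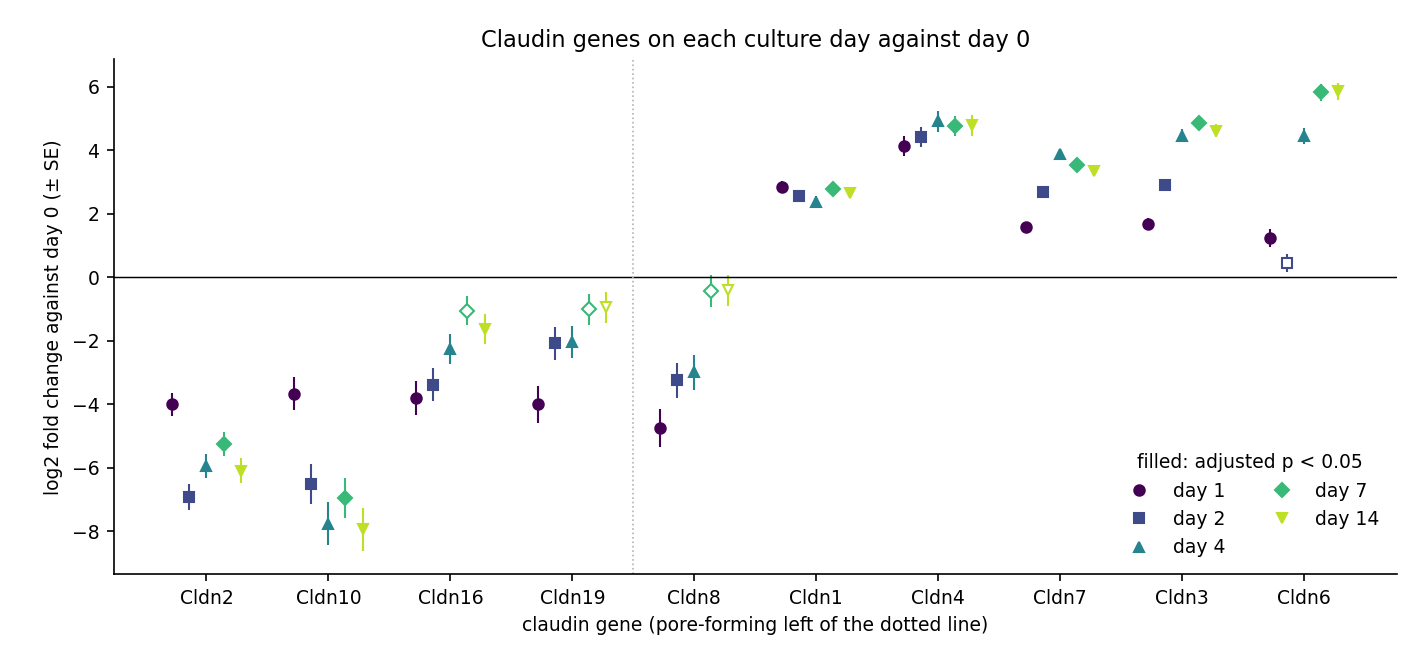
Log2 fold change of each claudin on days 1, 2, 4, 7 and 14 against day 0 with its standard error (edgeR, 3 libraries a day); filled symbols have an adjusted p under 0.05 and open symbols do not. Cldn2 and Cldn10 are at -3.66 or lower throughout, Cldn8, Cldn16 and Cldn19 are nearer to 0 on day 14 (-0.41, -1.63 and -0.94) than on day 1 (-4.74, -3.80 and -4.00), and Cldn6 reaches 5.86 on day 14.

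Several of the genes lie beside each other in the genome (GRCm38). Cldn4 (chromosome 5, 134945119 to 134946934, minus strand) and Cldn3 (chromosome 5, 134986214 to 134987472, plus strand) point away from each other with 39.3 kb between them, and both rose. Cldn1 (chromosome 16, 26356642 to 26371841, minus strand) and Cldn16 (chromosome 16, 26463135 to 26482765, plus strand) also point apart, with 91.3 kb between them, and moved in opposite directions on day 1. Cldn2 lies on chromosome X (139800828 to 139811386) and Cldn7 on chromosome 11 (69964779 to 69967885). Cldn10 lies on chromosome 14 (118787908 to 118875489), and Cldn8 on chromosome 16 (88560828 to 88563183). Cldn6 (chromosome 17, 23679249 to 23682446) ends 0.138 kb before Cldn9, which reached no more than 1.16 TPM in any library, with 10 to 63 counts a day summed over 3 libraries. Cldn9 had 0.647 ± 0.284 TPM on day 4 and 0.137 ± 0.0513 on day 2 (log2 2.15 ± 0.59, edgeR adjusted p = 0.0086), the step at which Cldn6 rose by 4.01 ± 0.25, and 0.133 ± 0.0862 TPM on day 1 and 0.353 ± 0.189 on day 0 (log2 -1.74 ± 0.62, adjusted p = 0.0209). Cldn19 (chromosome 4, 119255414 to 119262438) overlaps the antisense gene Gm12927 over 1562 bases, which had up to 3.95 TPM on day 0, and whether counting used strand is not given in the sources used here. For that reason part of its day 0 reads may be shared. The antisense gene at the end of Cldn3, Wbscr25, reached no more than 0.15 TPM.

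By pattern, the genes nearest to Cldn2 over the 18 libraries were Arsb, a lysosomal sulfatase, L3hypdh, a dehydratase for a hydroxyproline, and Maf, a transcription factor (Pearson r of log2 CPM of 0.986, 0.985 and 0.984 among 10950 genes compared). Nearest to Cldn10 were Slc5a1, the sodium-glucose cotransporter, Plcb1 and Acsl1 (r of 0.982, 0.979 and 0.977). Nearest to Cldn4 were Ccdc88a, Lrrfip1 and Ctps (0.990, 0.987 and 0.987), and to Cldn1 were Fhl2, Kdelr3 and Akap12 (0.983, 0.981 and 0.978). Cldn7 was nearest to Lasp1, Tnk2 and Tgfa, a ligand of the EGF receptor (0.994, 0.993 and 0.991), and Cldn3 to Tmem173, Micall2 and Trip10 (0.996, 0.993 and 0.993). Cldn6 was nearest to Scaf1, Cc2d1b and Ppp2r5b (0.985, 0.982 and 0.981), and Cldn8 to Nipal3, Ubl7 and Emc10 (0.980, 0.976 and 0.972). The values were lower for Cldn16, with Grb7, Paqr5 and Tmem94 (0.967, 0.966 and 0.965), and for Cldn19, with Prom2, Ift22 and Etfbkmt (0.925, 0.923 and 0.917). These correlations share the 18 libraries and the day structure and are given with no test.

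Other claudins were few and mostly low. Of 24 further claudin and claudin-domain genes found in the tables, 6 reached 1 CPM on average on some day. Of the 8 with enough counts to test, 2 were higher and 3 lower on day 14 against day 0, where 37.4% of all genes were higher and 32.1% lower. Cldn12, a claudin of many epithelia including the proximal tubule, was the highest of those named Cldn with a number: it had 115, 118 and 121 TPM on day 14, against 49.8, 67.3 and 56.3 on day 0. Its TPM groups did not overlap, but with TMM its CPM groups did and the log2 fold change was 0.20 ± 0.10 (edgeR, adjusted p = 0.072). Cldn23 had 5.99 ± 0.657 TPM on day 14 and 0.0433 ± 0.0153 on day 0 (log2 6.21 ± 0.33, edgeR adjusted p = 1.16e-10). Cldn5, the endothelial claudin, fell to 0.663 ± 0.156 TPM on day 14, against 5.56 ± 0.515 on day 0 (log2 -3.88 ± 0.26, edgeR adjusted p = 1.95e-09), beside endothelial markers that summed to 3.59 ± 0.845 TPM on day 14 and 57.5 ± 6.05 on day 0. Cldn15 had 0.07 ± 0.0400 TPM on day 14 and 2.64 ± 0.148 on day 0 (edgeR, adjusted p = 1.86e-07), and Cldn34c1 was not called (edgeR, adjusted p = 0.589). Cldnd1, a claudin-domain protein, had 139 ± 5.08 TPM on day 14 and 34.4 ± 0.374 on day 0 (log2 1.15 ± 0.10, edgeR adjusted p = 3.56e-08).

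Other proteins of the tight junction mostly rose with the claudins of tight segments. On day 14 against day 0, 9 of 12 membrane proteins tested were higher and 3 lower, and 20 of 29 scaffold and polarity genes were higher and 3 lower, where 37.4% of all genes were higher and 32.1% lower. Median log2 fold changes were 0.89 and 0.92, beside 0.16 over all genes. Ocln, occludin, had 119 ± 6.16 TPM on day 14 and 22.8 ± 1.3 on day 0 (log2 1.5 ± 0.18, edgeR adjusted p = 2.03e-06), and on day 1 it was not called (0.17 ± 0.18, adjusted p = 0.412). Marveld2, tricellulin of the three-cell corner, had 25.5 ± 0.526 TPM on day 14 and 5.23 ± 0.403 on day 0, and Lsr, which recruits it there, had 191 ± 6.54 and 31.7 ± 2.31. Epcam, known to bind Cldn7 and Cldn1 and slow their turnover, was called slightly lower on day 1 with TMM (log2 -0.34 ± 0.14, edgeR adjusted p = 0.0412), though its TPM overlapped (82.0 ± 4.31 on day 1 and 80.9 ± 16.9 on day 0), and was then higher on day 14, at 374 ± 14.7 TPM against 80.9 ± 16.9 on day 0 (log2 1.38 ± 0.14, edgeR adjusted p = 2.75e-07). In the scaffold list Tjp1, ZO-1, which binds the claudin tails, had 37.5 ± 2.02 TPM on day 14 and 6.19 ± 0.809 on day 0, and Cgn, cingulin, had 36.5 ± 2.31 and 2.81 ± 0.705. Amotl1 (log2 4.72 ± 0.16), Prkci (2.77 ± 0.13), the polarity kinase, and Cxadr (2.59 ± 0.11) were the largest further rises named (edgeR, adjusted p of at most 3.06e-11). Jam3 and Ildr2 fell, to 1.02 ± 0.104 and 0.637 ± 0.150 TPM on day 14, against 34.1 ± 3.04 and 15.0 ± 1.59 on day 0.

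Genes known to regulate claudins moved both ways. Of 34 tested, 15 were higher and 14 lower on day 14 against day 0, where 37.4% of all genes were higher and 32.1% lower, and their median log2 fold change was 0.15, beside 0.16 over all genes. Hnf4a, a transcription factor of the proximal tubule, fell to 17.7 ± 6.41 TPM on day 1 and 0.453 ± 0.199 TPM on day 14, against 140.0 ± 10.8 on day 0 (log2 -3.33 ± 0.51 and -9.08 ± 0.70, edgeR adjusted p = 2.76e-05 and 9.17e-09). Klf5, an epithelial transcription factor, had 98.5 ± 5.89 TPM on day 1 and 72.3 ± 7.69 on day 14, against 0.727 ± 0.27 on day 0 (log2 6.75 ± 0.27 and 5.84 ± 0.27, edgeR adjusted p = 1.16e-11 and 2.15e-11). Grhl2, known to activate Cldn4 in kidney epithelium, was not called on day 1 (log2 0.19 ± 0.19, edgeR adjusted p = 0.372), and had 24.9 ± 0.942 TPM on day 14 against 2.40 ± 0.287 on day 0 (log2 2.61 ± 0.19, adjusted p = 5.82e-09). Wnk4, a kinase of the distal nephron that phosphorylates claudins, fell to 9.51 ± 0.471 TPM on day 1 and was at 31 ± 1.78 on day 14, against 59.0 ± 5.45 on day 0 (day 14 log2 -1.73 ± 0.42, edgeR adjusted p = 0.00161). Klhl3, the ubiquitin ligase adaptor that targets WNK kinases and Cldn8, fell to 0.283 ± 0.0551 TPM on day 14, against 5.61 ± 0.165 on day 0 (log2 -5.08 ± 0.29, edgeR adjusted p = 2.64e-10). Casr, the calcium-sensing receptor of the thick limb, fell to 0.213 ± 0.0289 TPM, against 11.3 ± 0.995 (edgeR, adjusted p = 1.19e-08).

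**Figure D5:**
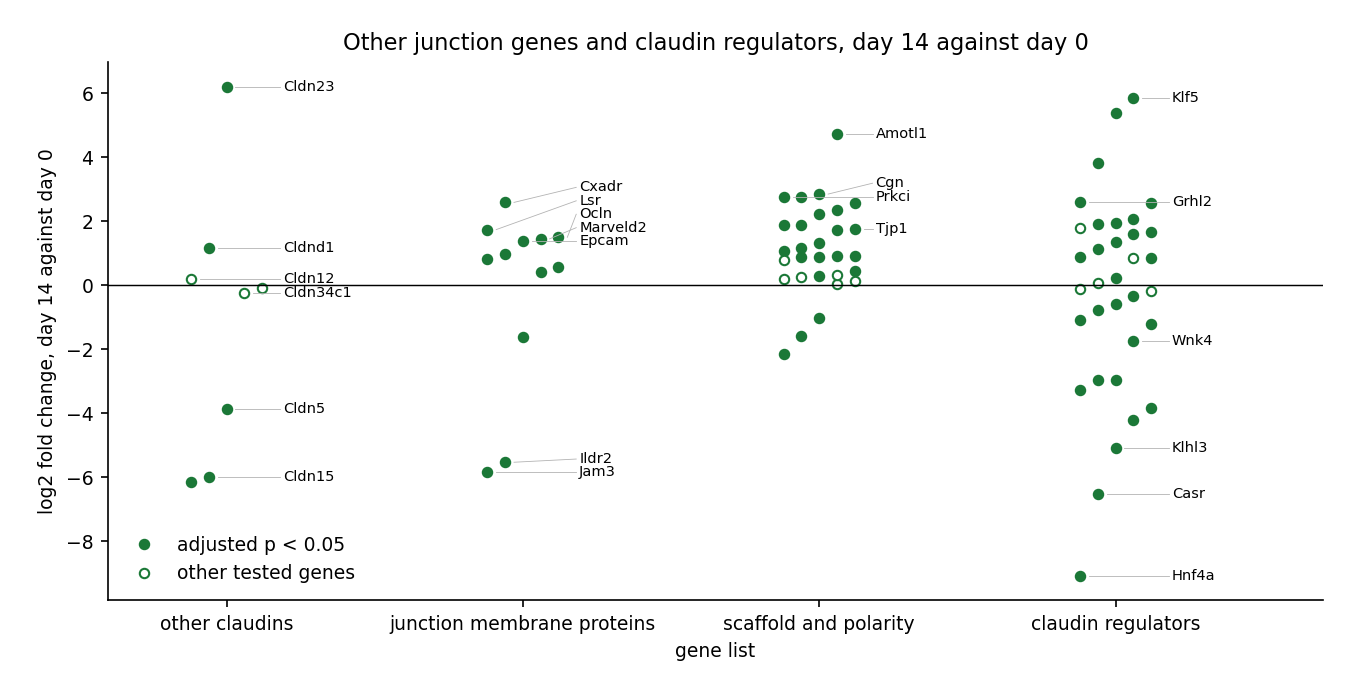
Log2 fold change on day 14 against day 0 (edgeR) for the tested genes of 4 lists; filled circles have an adjusted p under 0.05, and the genes named in the text are labelled. Most junction membrane and scaffold genes lie above 0, and the claudin regulators run from -9.08 (Hnf4a) to 5.84 (Klf5).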

How the data were processed

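RNA was sequenced from 18 libraries, 3 per day. The authors deposited a table of estimated counts per gene, given as whole numbers, and a table of TPM per gene. The submitters' processing notes list RSEM 1.3.3, STAR 2.7.8a, cutadapt 2.3 and FastQC 0.11.8, and GRCm38 as the build. Neither strand setting nor annotation release is given in the sources used. From 55426 entries, 5 reporter transgenes with 0 counts were left out. No libraries of a day were alike within sampling noise.

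Shares were computed from the deposited TPM. CPM used TMM-scaled library sizes. The 18754 genes kept by filterByExpr were tested with edgeR 4.0.16 (quasi-likelihood F test, 1 model of 6 day means, Benjamini-Hochberg over all genes, called at an adjusted p under 0.05), and SE is the log2 fold change over the root of F. The test was tested on simulated data for day 1 against day 0 (16516 genes). It found 1 of 50 genes changed 1.5-fold, 19 of 50 changed 2-fold and 48 of 50 changed 4-fold, with 4 false calls. Only libraries of days 0 and 1 were simulated and fitted, with the same spread for every gene. Its power may therefore differ from that of the model of all 18 libraries. DESeq2 1.42.0 and limma 3.58.1 (log2 of TPM plus 1 or 0.1) were alternatives, beside other scalings, no filter, a replicate block and each library left out. For day 4 against day 2 the replicate letters may pair the libraries, a hint from the data and not the labels (same-letter r of 0.203, 0.16 and 0.293). Positions came from GENCODE vM21 and promoters from RefSeq. R 4.3.3, Python 3.11.15 and matplotlib 3.10.9 were used.

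Members and lists were chosen with earlier results of these data known. Beside the 10 members, genes were named by rule: 10 fixed genes (Epcam, Ocln, Tjp1, Cgn, Marveld2, Lsr, Wnk4, Klhl3, Grhl2 and Hnf4a), other claudins of at least 1 CPM on some day, the 3 largest called changes of each list of other claudins, junction genes and regulators on day 14 against day 0 with at least 10 CPM on the higher day, and the 3 genes nearest each member by Pearson r. In the marker lists the rule for the largest changes was not followed. It picked Egf, Ppp1r1a and Hsd11b2, among others that are not described above. The markers and Cldn9, Upk3a, Gm12927 and Wbscr25 were named after their values were seen.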

Additional observations from a re-analysis of the deposited data

How the results depend on the processing

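Of 2800 refitted log2 fold changes of the 10 genes, 2670 kept direction and side of the threshold, 42 lost and 51 gained a call, and 37 changed sign, none of them called with all libraries. Members lower on day 7 against day 0 were 4 with the replicate block and with DESeq2 (2 to 3 leaving out a library), and on day 14 against day 0 5 when only those days were fitted (3 to 5). Members higher on day 2 against day 1 were 2 with limma on log2(TPM + 1), filtered or not (2 to 4), and on day 7 against day 4 4 with the replicate block and 1 with those days only (2 to 5). Those lower on day 14 against day 7 were 0 to 3 over the libraries left out. On day 14 against day 4, added after seeing the data, 4 were higher with those days only and with limma at either pseudocount, and 0 lower with limma, filtered or not. Pore-forming shares moved to 69.5% (all claudins) and 67.0% (no Cldn10) on day 0 (75.6% to 77.4% leaving out a library), 5.21% (no Cldn10) and 11.7% (no Cldn1 and Cldn6) on day 1 (7.93% to 9.80%), 1.43% by CPM on day 4 (0.812% to 1.12%), and 2.20% by CPM and 1.94% without Cldn1 and Cldn6 on day 7 (1.49% to 1.74%). The causes were not tested, beyond what each setting leaves out.

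Sign changes (log2): Cldn8 on day 7 against day 0 was 0.05 with library sizes alone and -0.79 to 0.11 leaving out a library, and on day 14 against day 0 0.15 with library sizes and 0.43 with limma. Cldn19 on day 4 against day 2 was -0.21 or -0.31 with limma and -0.38 to 0.52 leaving out a library. Cldn2 and Cldn4 on day 14 against day 4 were 0.08 or 0.10 and 0.07 with limma. Cldn8 on day 14 against day 7 was -0.01 without a filter. Leaving out a library gave, on day 14 against day 7, -0.09 to 0.12 for Cldn4, -0.25 to 0.26 for Cldn6, -0.52 to 0.38 for Cldn8, -1.71 to 0.46 for Cldn10 and -0.31 to 0.69 for Cldn19. It gave -0.62 to 1.23 for Cldn10 on day 7 against day 4, and -0.35 to 0.04 for Cldn2 and -0.94 to 0.23 for Cldn10 on day 14 against day 4. Deviations of same-lettered libraries had a mean r of 0.0346 (-0.172 to 0.423, over 0.1 in 8 of 45 pairs), against -0.0175 for other letters. Days 2 and 4 were the only days for which all 3 letters were over 0.1, and there the replicate block changed no call of the 10 genes, with 4 higher and 0 lower as before. For other days the samples share only a letter. Depth limits Cldn10, Cldn16 and Cldn19 most: a library held as few as 8 estimated counts for Cldn10 on day 14 and for Cldn19 on day 1.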
